A study of Mus musculus with 11 samples.

Results

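The comparison described here set methylated DNA captured from the ventral suprachiasmatic nucleus of mice on 24 h days against that from mice on 26 h days. Its members were all distinct 500-bp windows of the list that the authors deposited for these ventral groups, each position counted once. They numbered 217, of 1181 distinct windows in the 4 lists of the series. The suprachiasmatic nucleus (SCN) is the master circadian clock of the hypothalamus. All mice were wild type, of the strain C57BL/6Cr1 and labelled postnatal day 90. They had lived for 6 weeks on light:dark cycles of 24 h (label T24) or 26 h (label T26), and then in constant darkness for 3 days. Brains were taken at circadian time 4, a coronal slice of about 250 µm was cut from the middle of the SCN, and its ventral and dorsal parts were separated by knife. The labels give 2 samples in each of the ventral groups, but the list shows 1 column of values per cycle length, so the spread between samples cannot be seen and no test over samples was possible.

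Methylated DNA immunoprecipitation sequencing (MeDIP-seq) shears genomic DNA, captures fragments that carry 5-methylcytosine with an antibody, and sequences what was captured. The read count of a window therefore depends on how many methylated cytosines lie there, mostly in CpG dinucleotides, and on how many copies of that sequence the cells hold. The ventral SCN receives the input from the retina and is known for neurons that make vasoactive intestinal peptide and gastrin-releasing peptide, while vasopressin neurons mark the dorsal part. DNA methylation in neurons is written and removed by dedicated enzymes and is one way in which a past environment can leave a lasting mark. No column of uncaptured DNA was used here, so more methylation and more copies cannot be told apart. Captured DNA does not measure expression, so the dissection could not be checked here through cell type markers.

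Of the 217 windows, 58 were higher at 24 h and 159 lower, a share higher of 26.7% (exact Clopper-Pearson 95% interval 21 to 33.1). Levels are given as RPKM, the reads per kilobase of window and 1000000 reads of the column. A ratio of RPKM of 2-fold or more was met by 112 lower windows (51.6% of the list) and 21 higher windows (9.68%). The exact 95% interval of the ratio, computed from the reads behind both values, lay below 1 in 151 windows (69.6%) and above 1 in 58 (26.7%). The authors had already selected the list on this contrast, so these shares describe it and test nothing. Touching windows formed 107 regions, of which 63 were single windows and 41 were higher at 24 h. The column depth was 5.231 at 24 h and 9.434 at 26 h, in units of 1000000 reads. Without scaling to that depth, 28 of the 217 windows (12.9%) were higher at 24 h.

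The list fell into 4 classes by position and sequence. A stretch of chromosome 11 around the gene Sfi1 held 82 windows (37.8% of the list). The mitochondrial chromosome held 16 windows, and nuclear copies of mitochondrial DNA held 19. The other 100 windows were scattered over the nuclear genome and contained 57 of the 58 higher windows. The median log2 ratio of 24 h over 26 h was -1.56 in the chromosome 11 stretch, -0.65 on the mitochondrial chromosome, -0.76 in its nuclear copies and 0.58 in the other nuclear windows. On reads not scaled to depth the last of these turned to -0.27, while the first 3 stayed negative.

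Stretches of some windows described below are printed here from the mm9 reference genome, plus strand, 5′ to 3′. The loci were chosen as examples, mostly with their window of highest RPKM at 24 h. The chromosome 10 window was taken for its repeat content. The Sfi1 window was taken for its fold among intron windows without CpG, and 5 of the 81 lower windows of that stretch have none. Each stretch is the first in its window with the most CpGs, which are in capitals.
Start of chromosome 9, chr9:3008537-3008836: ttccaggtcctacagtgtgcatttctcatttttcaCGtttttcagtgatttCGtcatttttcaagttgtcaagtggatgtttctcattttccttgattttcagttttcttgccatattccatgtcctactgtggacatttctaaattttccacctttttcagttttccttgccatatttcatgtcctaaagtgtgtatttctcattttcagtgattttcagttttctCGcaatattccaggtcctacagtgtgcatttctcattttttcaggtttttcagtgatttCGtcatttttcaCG
Chromosome 10 array, chr10:7233053-7233202: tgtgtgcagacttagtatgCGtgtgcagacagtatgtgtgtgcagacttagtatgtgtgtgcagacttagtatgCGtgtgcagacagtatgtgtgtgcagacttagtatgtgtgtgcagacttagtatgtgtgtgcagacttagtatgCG
Array near Tmem125, chr4:118220324-118220499: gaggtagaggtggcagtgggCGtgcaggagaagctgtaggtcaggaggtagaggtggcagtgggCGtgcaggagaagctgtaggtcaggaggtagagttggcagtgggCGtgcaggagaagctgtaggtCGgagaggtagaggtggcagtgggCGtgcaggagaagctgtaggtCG
Array in an Rsph3a intron, chr17:8149645-8149769: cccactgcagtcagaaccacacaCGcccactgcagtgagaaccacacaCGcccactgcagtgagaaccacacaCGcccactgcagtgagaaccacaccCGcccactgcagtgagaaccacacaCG
Capn9 intron, chr8:127135765-127135964: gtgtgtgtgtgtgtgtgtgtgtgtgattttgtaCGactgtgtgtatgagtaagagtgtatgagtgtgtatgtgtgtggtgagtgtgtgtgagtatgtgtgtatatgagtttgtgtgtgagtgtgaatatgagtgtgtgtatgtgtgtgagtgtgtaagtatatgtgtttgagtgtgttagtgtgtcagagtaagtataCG
Nalcn intron, chr14:123944057-123944256: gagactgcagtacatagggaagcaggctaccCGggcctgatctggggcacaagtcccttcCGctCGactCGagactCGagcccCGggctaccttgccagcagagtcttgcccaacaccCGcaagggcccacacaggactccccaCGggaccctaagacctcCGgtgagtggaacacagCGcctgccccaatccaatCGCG
Window named Ncam2, chr16:81028637-81028836: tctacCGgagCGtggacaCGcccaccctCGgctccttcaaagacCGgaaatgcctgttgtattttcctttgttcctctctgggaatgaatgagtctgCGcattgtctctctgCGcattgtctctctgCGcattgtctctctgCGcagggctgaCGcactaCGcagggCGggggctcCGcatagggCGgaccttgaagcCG
Window named Avpr1a, chr10:121744501-121744700: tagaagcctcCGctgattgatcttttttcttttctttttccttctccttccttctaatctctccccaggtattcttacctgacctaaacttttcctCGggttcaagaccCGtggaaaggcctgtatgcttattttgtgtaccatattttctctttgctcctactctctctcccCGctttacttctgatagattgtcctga
Sfi1 intron, chr11:3066001-3066200: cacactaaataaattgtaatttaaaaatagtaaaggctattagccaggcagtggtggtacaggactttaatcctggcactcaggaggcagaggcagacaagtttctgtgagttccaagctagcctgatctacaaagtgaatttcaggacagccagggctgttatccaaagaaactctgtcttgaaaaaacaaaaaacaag

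The higher windows were of 2 kinds, separated by a gap in read number with no window between 120 and 239 reads at 24 h. The first kind comprised 37 windows in 22 regions with 239 to 968 reads at 24 h and 244 to 985 at 26 h. Their ratio of RPKM ran from 1.35 to 1.97 with a median of 1.75. Their ratio of reads ran from 0.750 to 1.09, and 24 of the 37 held read numbers within 10% of equal in both columns. More reads at 24 h were found in 7 of them, by a ratio of 1.09 at most. At the other 30 the direction rested on the scaling to depth, since the 24 h column held 0.554 times the reads of the 26 h column. On reads not scaled to depth, the interval of the ratio lay above 1 in none of the 37. The second kind comprised 21 windows with 14 to 120 reads at 24 h and 0 to 69 at 26 h, and all of them had more reads in the shallower 24 h column. Their median ratio was 12. The authors had selected the list on this contrast, and a window with few reads can enter it only with a large ratio. The difference in ratio between the 2 kinds is tied to that selection and was not tested.

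**Figure D1:**
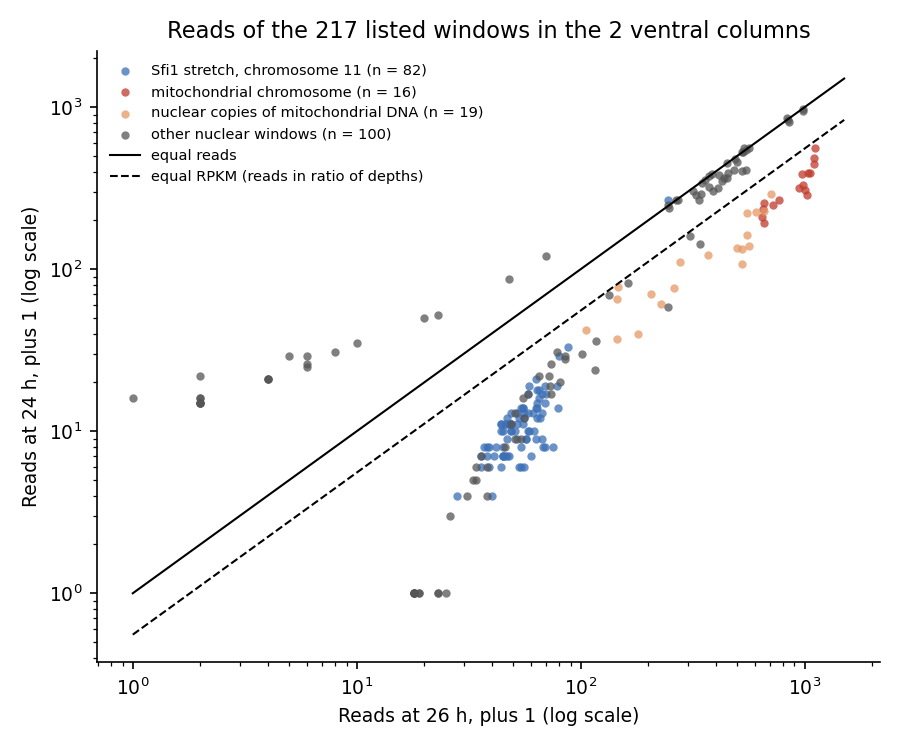
Reads at 26 h (horizontal axis, plus 1, log scale) and at 24 h (vertical axis, plus 1, log scale) for each of the 217 windows, coloured by class. The solid line marks equal reads and the dashed line equal RPKM; the 37 high-read windows lie on or near the solid line, and 81 of the 82 windows of the chromosome 11 stretch lie below the dashed line.

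The highest signals of the list lay at the start of the assembled chromosome 9, in windows named after the microRNA gene Mir101c. The window at chr9:3008501-3009000, in an intron of the predicted gene Gm16869, had 370.1 RPKM at 24 h and 207.6 at 26 h, from 968 and 979 reads. It was 1.78-fold higher at 24 h (95% interval 1.63 to 1.95). Its neighbour at 3009001 had 361.7 and 208.8 RPKM, and the window at 3038001, in an exon of Gm10715, had 317.7 and 178.5 RPKM. The sequence is rich in A and T, with a GC content of 33.8% to 37.8% in these 3 windows, and most of its 31-base words recur elsewhere in the genome. The other window of the group, at 2999501, consists of undetermined bases in mm9, yet it was listed with 239 reads at 24 h and 247 at 26 h.

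Simple tandem arrays made up another share of the high-read windows. On chromosome 10, 9 windows named after B020014A21Rik lay between 7229501 and 7237000. The whole 500-bp window from which a stretch is printed above repeats with a period of 74 bp, at 87.1% identity. Their levels ran from 102.5 to 155.6 RPKM at 24 h and from 68.9 to 102.2 at 26 h, and the most read window among touching neighbours, at 7232501, was 1.55-fold higher at 24 h (1.35 to 1.78). On chromosome 4, 4 windows lay near Tmem125, a membrane protein gene. The stretch printed from them repeats a 44-bp unit with a CpG in each full copy. The window at 118220001 had 325.4 RPKM at 24 h and 177.0 at 26 h, from 851 and 835 reads, and was 1.84-fold higher (1.67 to 2.02). This array lay 3.42 to 4.92 kb from the Tmem125 start site that the authors give.

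Windows at the ends of chromosomes 2 and 18 were also higher at 24 h. The window at chr2:181747501-181748000 ends 87 bp before the end of the assembled chromosome and was named after the predicted gene Gm14496. Its level was 154.9 RPKM at 24 h against 111.3 at 26 h (1.39-fold, 1.22 to 1.59). The corresponding window of chromosome 18, 31 bp from its end and named after Tmx3, a thioredoxin-related gene, had 155.6 and 115.1 RPKM (1.35-fold, 1.19 to 1.54). Neither window holds a CpG. At both, the 24 h column had fewer reads than the 26 h column, with 405 against 525 and 407 against 543.

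A block on chromosome 2 between 98502001 and 98508000 was named after Lrrc4c, which encodes a leucine-rich synaptic adhesion protein, although it lay 1194 to 1200 kb from that gene's start site. It covered the predicted genes Gm10801 and Gm10800. Its 7 windows had 101.7 to 202.3 RPKM at 24 h and 56.4 to 112.6 at 26 h. The most read of them, at 98504001, had 527 and 531 reads and was 1.79-fold higher at 24 h (1.58 to 2.02). A pair of windows at chr9:35112501-35113500, named after 4933422A05Rik, had 214.9 and 207.2 RPKM at 24 h against 119.8 and 115.3 at 26 h, and a pair in an intron of Tcte2 on chromosome 17, named after 2700054A10Rik, had 115.9 and 120.8 against 82.1 and 87.1. The Tcte2 pair holds no CpG.

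Further high-read windows stood singly. An exon of Chl1, a neural adhesion gene of the L1 family, held a window (chr6:103599001-103599500) with 135.0 RPKM at 24 h against 75.9 at 26 h, 1.78-fold higher (1.53 to 2.07). The window named after Kcnh5, a voltage-gated potassium channel gene, lay 373 kb from its start site and had 116.2 and 67.2 RPKM. In an intron of Mdga2, which encodes a regulator of synaptic adhesion, the values were 102.1 and 57.5 RPKM. The window named after Fam172a, in an intron of 2210408I21Rik, had 94.4 and 51.7 RPKM. The read numbers were 353 against 358, 304 against 317, 267 against 271 and 247 against 244 in that order, so all 4 were within 10% of equal. In the chromosome 10 array the ratio of reads was lower, at 0.795 to 0.883.

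The largest differences in favour of 24 h came from windows with few reads at 26 h. Only an empty column was set to a floor of 3 reads, and a column with 1 read was left as it was. A ratio against 1 read can thus rank above a ratio against 0, as 15 reads against 1 (27.1-fold) above 15 against 0 (9.02-fold). An intron of Capn9, which encodes a calcium-dependent protease, held 21 reads at 24 h and 1 at 26 h (37.9-fold; interval 6.09 to 1566). Col5a1 (exon of a collagen gene) and a window named after Tex2 each had 15 reads against 1, and those named after Frmd4a, Alpk1, Gng13 and Hsd17b13 each had 14 against 1. With 1 read at 26 h, the intervals of these last 6 ratios began at 3.84 or 4.16 and ended above 1000. The names were often not those of the gene that held the window. The Hsd17b13 window lay in an intron of Hsd17b11, a neighbouring gene of steroid metabolism. The Gng13 window (chr17:25856001-25856500) lay in UTR sequence shared by Gng13, a G protein gamma subunit, and Chtf18, a subunit of a clamp loader in DNA replication, within 1000 bp of the Chtf18 start.

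Windows with 24 or more CpGs were found among these low-read windows. At chr15:12764001-12764500, in an exon of Drosha, the nuclease that starts microRNA maturation, 28 CpGs lay in mostly unique sequence. The window had 7.65 RPKM at 24 h and 0.64 at 26 h, from 20 and 3 reads (12-fold, 3.57 to 63.2). The window named after Ncam2, a neural adhesion gene whose start site lay 172 kb away, held 27 CpGs and the same read numbers. An intron of Nalcn, the sodium leak channel of neurons, held 25 CpGs in sequence present in many copies, with 15 reads at 24 h and 0 at 26 h. With the empty column set to a floor of 3 reads it was 9.02-fold higher, and the exact 95% interval from the reads themselves began at 6.47. The window named after Zbtb10 held 24 CpGs and had 25 reads against 5 (9.02-fold, 3.39 to 30.2).

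Further low-read windows that were higher at 24 h are given here as examples. In an intron of Nrxn2, a neurexin gene of presynaptic adhesion, a mostly unique window (chr19:6499501-6500000, named after Slc22a12) had 20 reads at 24 h and 3 at 26 h (12-fold, 3.57 to 63.2). An exon of Spata13, which encodes a guanine nucleotide exchange factor, held a window within 1000 bp of a transcript start that was named after C1qtnf9 (28 against 4 reads; 12.6-fold, 4.42 to 49.5). Between genes, 141 kb from Avpr1a, the gene of a vasopressin receptor, a window had 11.5 RPKM at 24 h and 1.48 at 26 h, from 30 and 7 reads (7.73-fold, 3.33 to 20.8). A pair of windows in an Rsph3a intron, the array printed above, had 86 against 47 and 120 against 69 reads and was 3.30-fold (2.29 to 4.81) and 3.14-fold higher (2.31 to 4.28). Rsph3a encodes a component of the radial spokes of cilia. A pair in an intron of Spag9, a scaffold gene of kinase signalling, was 6.81-fold (3.20 to 16.2) and 4.18-fold higher (2.49 to 7.24).

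The chromosome 11 stretch ran from 3027001 to 3100000, and 82 of the 146 grid windows in these 73.0 kb were listed (56.2%). Annotation with GENCODE M1 placed 71 of the 82 windows inside Sfi1, which encodes a centrosomal protein and runs on the minus strand from 3093466 to 3031853. Of the 29 windows that the authors named after the pseudogene Pisd-ps3, 25 lay inside Sfi1 and 4 inside the locus annotated there as Pisd-ps1. The windows beyond the Sfi1 start lay mostly in introns of Drg1, which encodes a GTP-binding protein. In contrast to the repeat arrays, 77 of the 82 windows were mostly unique in mm9.

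All windows of the stretch but 1 were lower at 24 h. The 81 lower windows had 1.15 to 12.2 RPKM at 24 h with a median of 3.44, and 5.72 to 18.4 RPKM at 26 h with a median of 11.2. They held 833 reads at 24 h and 4339 at 26 h in all, a summed ratio of 0.346 (0.321 to 0.373). The fold ran from 1.51 to 7.21 with a median of 2.96, and the interval of the ratio lay below 1 in 80 of the 81. The largest was at 3032501, in annotated UTR sequence of Sfi1 (1.15 against 8.27 RPKM; 7.21-fold lower, 2.29 to 36.5). In introns, the window at 3059001 had 1.91 against 11.7 RPKM (6.10-fold lower, 2.46 to 19.5), and the window at 3066001, printed above and free of CpG, had 2.68 against 14.2 RPKM (5.31-fold lower, 2.44 to 13.7). The most read windows among runs of at least 3 included those at 3068501 (13 against 78 reads), 3071501 (28 against 79) and 3060001 (12 against 66).

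The exception was the window that holds the Sfi1 start site, chr11:3093001-3093500. It carried 42 CpGs, the most of any listed window, and had 101.7 RPKM at 24 h and 51.7 at 26 h, from 266 and 244 reads (1.97-fold higher, 1.65 to 2.35). The lower windows of the stretch had a median of 3 CpGs, the same as the median of all 5116453 windows of the genome grid, and 5 of them had none. Across the 81 lower windows, the Spearman correlation of CpG number with RPKM at 26 h was -0.06, and with the log2 ratio it was 0.30. These windows share the same 2 pooled columns and neighbouring DNA, so the correlations are descriptions.

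**Figure D2:**
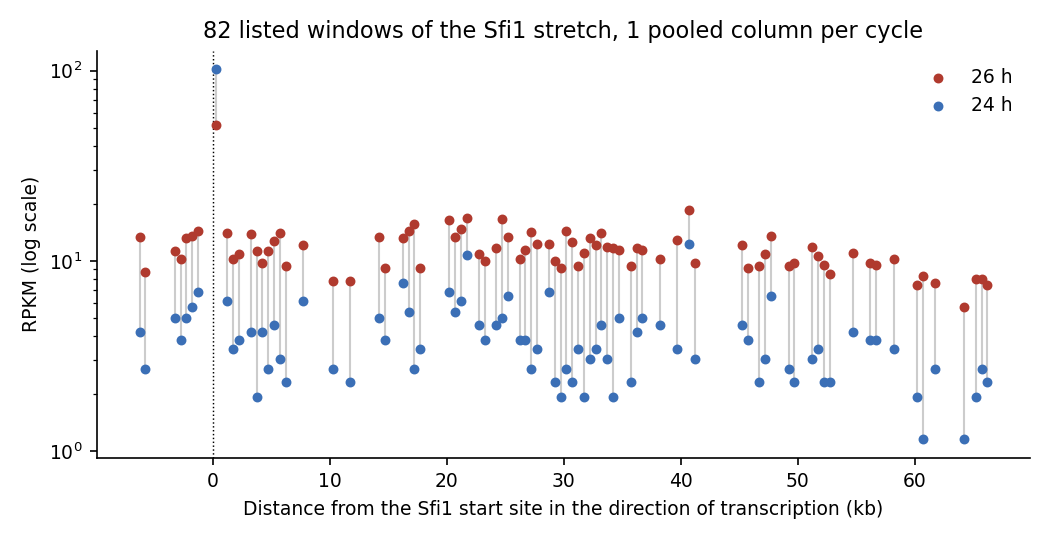
RPKM (log scale) of the 82 listed windows of the chromosome 11 stretch by distance from the Sfi1 start site in the direction of transcription (kb), with a line joining the 24 h and 26 h values of a window. The start-site window is the only one higher at 24 h, at 101.7 against 51.7 RPKM; the other windows lie at 1.15 to 12.2 RPKM at 24 h and 5.72 to 18.4 at 26 h.

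The mitochondrial chromosome, which encodes subunits of the respiratory chain, had 16 of its 32 grid windows in the list, all lower at 24 h. The levels were 73.8 to 212.6 RPKM at 24 h and 136.5 to 236.2 at 26 h. The interval of the ratio lay below 1 in all 16 windows, and the fold ran from 1.11 to 2. The smallest difference was at 13501, across mt-Nd5 and mt-Nd6 (212.6 against 236.2 RPKM), and the largest was at 12001 in mt-Nd5 (108.6 against 217.1 RPKM). In mt-Atp6, the window at 8001 had 94.8 against 152.4 RPKM (1.61-fold lower, 1.39 to 1.86). The window at 11501 has no CpG and had 150.3 against 223.9 RPKM (1.49-fold lower, 1.33 to 1.68).

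Among the listed mitochondrial windows, levels were lowest in a span with an identical or nearly identical nuclear copy on chromosome 1. The block on chromosome 1 between 24618001 and 24623500, named after the collagen gene Col19a1, aligned to mitochondrial bases 6417 to 11042, at 100% identity in 9 of its 11 windows (in 1 of them over 25.4% of its length). The 6 mitochondrial windows inside that span had 73.8 to 102.1 RPKM at 24 h and 136.5 to 161.8 at 26 h. The 10 outside it had 108.6 to 212.6 and 200.6 to 236.2 RPKM, so the sets did not overlap in either column. Windows outside the span can also have a nuclear copy, as that at 4501 overlaps a match on chromosome 2 at 96.8% identity. Reads from the identical parts of this span cannot be assigned to either copy, and at the median of the 6 windows 0% of the 31-base words occurred once in the genome.

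The 11 windows of the chromosome 1 block were all lower at 24 h, with 13.8 to 110.1 RPKM against 30.5 to 150.3. The window with the most reads, at 24619001, overlaps annotated UTR sequence of Gm10222 and had 110.1 and 150.3 RPKM (1.37-fold lower, 1.19 to 1.57), and the largest fold was at 24620001 (40.5 against 110.9 RPKM; 2.74-fold lower, 2.22 to 3.40). The last window, at 24623001, did not align to the mitochondrial chromosome and had 13.8 against 30.5 RPKM. The block of 6 windows on chromosome 2 (22443001 to 22446000) was named after Gad2, which encodes an enzyme of GABA synthesis, but it lay 32.1 to 34.6 kb from its start site, within Myo3a, a myosin gene. The annotation places the pseudogenes Gm13339, Gm13340 and Gm13341 there. Its levels were 14.9 to 46.3 RPKM at 24 h and 38.0 to 78.4 at 26 h. The window with the most reads, at 22445001, was 1.70-fold lower (1.38 to 2.10), and that at 22444001 was 2.54-fold lower (1.79 to 3.70).

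The relation of the chromosome 2 block to mitochondrial DNA is shown by 150 aligned bases of the window at 22444001, read on the minus strand, with the bases that differ in capitals.
Chromosome 2 copy, chr2:22444331-22444480: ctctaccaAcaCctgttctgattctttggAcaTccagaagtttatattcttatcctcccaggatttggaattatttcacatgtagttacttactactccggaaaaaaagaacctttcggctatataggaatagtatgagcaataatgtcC
Mitochondrial chromosome, chrM:6015-6164: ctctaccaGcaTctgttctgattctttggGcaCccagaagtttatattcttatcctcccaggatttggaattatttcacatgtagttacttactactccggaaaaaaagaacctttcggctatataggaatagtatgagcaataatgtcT
Over the whole window 13 of 500 bases differed. Further single windows of this class were named after Ccnh, a cyclin gene (29.4 against 30.95 RPKM), and Tyrp1, a pigment enzyme gene (15.7 against 22.3 RPKM), and at both the interval of the ratio held 1.

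**Figure D3:**
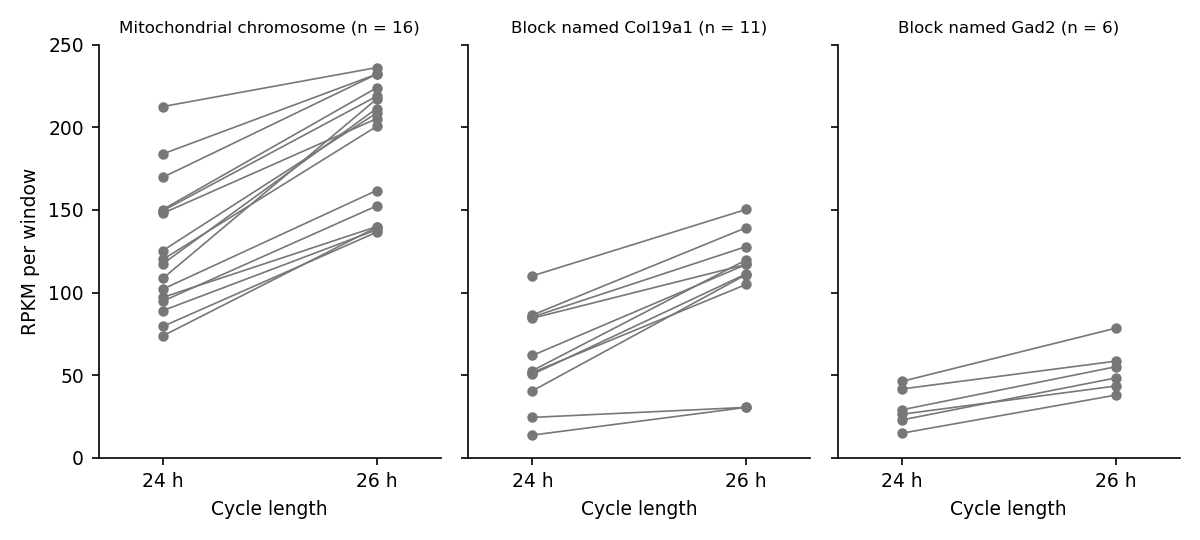
RPKM per window at 24 h and 26 h for the 16 windows of the mitochondrial chromosome, the 11 windows of the block named after Col19a1 and the 6 of the block named after Gad2; each line joins the values of a window in the pooled columns. Every line rises from 24 h to 26 h.

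Outside these classes 43 windows were lower at 24 h, in 29 regions, with a median of 3.82 RPKM at 24 h against 10.6 at 26 h. Of the 43, 4 aligned to the mitochondrial chromosome over 40.4% to 72.6% of their length, short of the 80% that defined the nuclear copies. They were named after 1700019M22Rik, Eea1, 4933402J10Rik and Nxph1. A cluster of 9 windows on chromosome 8, between 19717501 and 19925000, was named after the predicted genes Gm21119, 4930467E23Rik and 6820431F20Rik. None was mostly unique, and 4 had no reads at 24 h. The window at 19717501 was empty at 24 h and held 24 reads in the 26 h column; against the floor it was 4.44-fold lower, with an exact interval that began at 3.34. That at 19924001 had 3 reads at 24 h against 37 at 26 h (6.84-fold lower, 2.17 to 34.7). The most read, at 19760001, had 35 against 116 reads (1.84-fold lower, 1.25 to 2.76). Within 1000 bp of a 4930467E23Rik transcript start, the window at 19728501 had 0 reads at 24 h against 22 at 26 h. It was 4.07-fold lower against the floor, with an interval from 3.04.

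Several lower blocks were named after genes at a distance. The 4 windows named after Gpm6a, a neuronal membrane glycoprotein gene, lay 160 to 166 kb from its start site and had 3.82 to 8.03 RPKM at 24 h against 10.2 to 15.1 at 26 h. The most read among them, at 56199501, was 1.87-fold lower (1.14 to 3.21). The 5 windows named after Ly6c2, a surface antigen of blood cells, had 7.26 to 60.8 RPKM against 13.6 to 71.7, and the most read, at 74917001, was 1.32-fold lower (1.08 to 1.62). At 2 of these 5 the interval of the ratio held 1. Windows named after 1700019M22Rik lay more than 1000 kb from its start site and had 21.8 and 8.79 RPKM against 51.7 and 24.4. The first of this pair, at chr12:98299501-98300000, aligned to mitochondrial DNA over 72.6% of its length at 99.7% identity.

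The remaining large deficits were single windows or pairs with few reads at 24 h. The 3 windows in Pisd-ps2 on chromosome 17, a pseudogene related to the chromosome 11 locus, had 3 to 5 reads at 24 h and 30 to 37 at 26 h and were 4.10- to 5.54-fold lower. The window named after Vmn1r238, a vomeronasal receptor gene, had 2 reads against 25 (6.93-fold lower, 1.73 to 60.4). The pair named after Ccdc121 was 4.44-fold (1.57 to 17.3) and 3.23-fold lower (1.35 to 9.41). A window named after Eea1, an early endosome gene, had 3.06 against 11.2 RPKM (3.67-fold lower, 1.74 to 8.95), and its neighbour is 1 of the 4 that aligned in part to mitochondrial DNA. One named after Satl1 on the X chromosome lay in an intron of Apool, a gene of mitochondrial membrane organisation (3.06 against 10.6 RPKM; 3.47-fold lower, 1.63 to 8.46).

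CpG number differed between the directions. The higher windows had a median of 7.5 CpGs and the lower windows 4, where the genome grid had 3. At least 10 CpGs were present in 18 higher windows (31%) and 13 lower windows (8.18%), against 7.11% of the grid. All 9 windows with more than 14 CpGs were higher at 24 h by RPKM, and 7 of the 9 had more reads there without scaling to depth. Windows without any CpG numbered 17 (7.83%, against 8.19% of the grid), 8 higher and 9 lower, with the window of undetermined bases counted among them. Short tandem repeats were found in 43.1% of the higher and 2.52% of the lower windows, against 0.782% of 2559 grid windows examined. Mostly unique sequence made up 52.1% of the list and 85.8% of the grid. Neighbouring windows share repeats, so these shares were not tested.

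**Figure D4:**
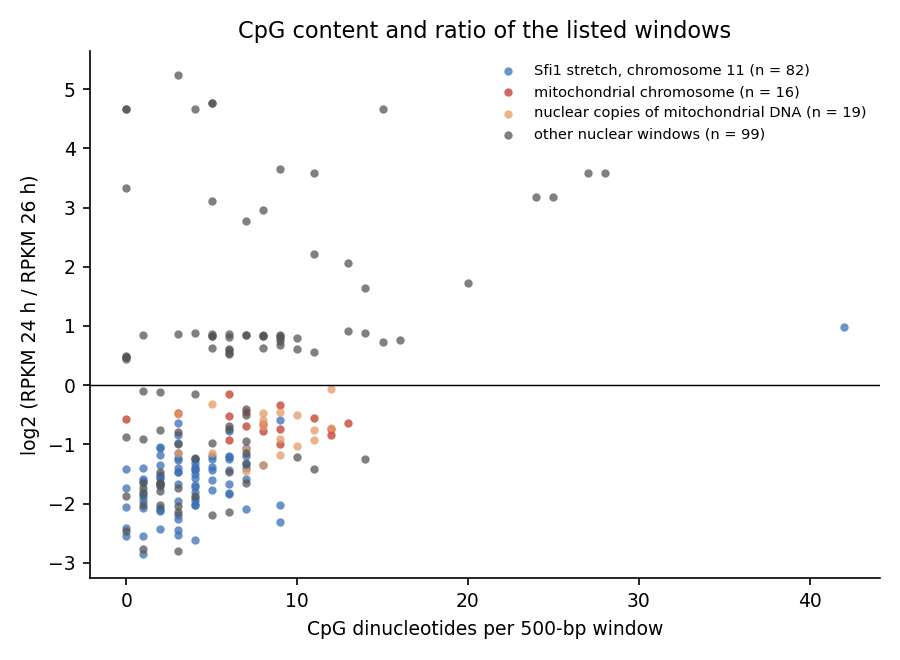
CpG dinucleotides per 500-bp window (horizontal axis) and log2 ratio of RPKM at 24 h over 26 h (vertical axis), coloured by class, without the window of undetermined bases. The 9 windows with more than 14 CpGs lie above 0, and the chromosome 11 stretch lies below 0 at 9 CpGs or fewer except for its start-site window at 42.

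Motifs of circadian regulation were searched in the listed windows. The E-box CACGTG, bound by the clock proteins CLOCK and BMAL1, was found on either strand in 11 windows (5.07%, against 4.83% of the grid). Of these, 8 were among the 82 windows of the chromosome 11 stretch, which make up 37.8% of the list. The D-box TTATGTAA was found in 4 windows (1.84%, against 2.64%). The cAMP response element TGACGTCA was in none, where 0.273% of the grid hold it.

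Genes of SCN function were looked up among the 63 genes that gave their name to a listed window. Of 507 genes in 12 functional lists and 8 marker lists, 9 gave their name to a listed window in the authors' table. By the nearest transcript start in GENCODE M1 the number was 6. In the whole list 26.7% of windows were higher at 24 h. In the list of SCN neuropeptides and receptors, Avpr1a was named for 1 window, higher at 24 h. Among 57 ion channel genes, Nalcn and Kcnh5 were named for 1 window each, both higher. Among 79 neural adhesion genes, Chl1, Lrrc4c and Ncam2 were named for 9 windows, all higher by RPKM. Of these 9, 7 lay in the Lrrc4c block, and 8 were high-read windows with read numbers within 10% of equal. Of 31 genes of GABA and chloride handling, Gad2 was named for the 6 lower windows of mitochondrial sequence. Gng13 represented light input and second messengers, and Drosha microRNA processing. No window was named after any of 30 clock genes, 23 genes of the DNA methylation machinery, 47 of axon guidance, 39 of glutamate signalling, 42 SCN and hypothalamic transcription factors or 43 imprinted genes. The share of all annotated genes that these lists make up was not computed. With 63 names in all, a list without a named gene says little. Nearest-gene names also say little here, as 68 of the 136 nuclear windows inside an annotated gene were named after another gene.

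The same windows could be followed in the dorsal SCN where the authors also listed them. The dorsal comparison of 24 h with 26 h held 79 windows, of which 5 were shared (2.30% of the ventral and 6.33% of the dorsal list). By label the dorsal 24 h group is 1 sample, and nothing says whether dorsal and ventral pieces came from the same animals. Both shared windows of the Col19a1 block were lower at 24 h in the dorsal as in the ventral SCN. At 24620001 the dorsal values were 6.98 RPKM at 24 h and 21.8 at 26 h (ratio 0.320, 0.172 to 0.560), beside 0.366 (0.294 to 0.451) in the ventral SCN. At 24621501 the dorsal ratio was 0.697 (0.531 to 0.910) and the ventral 0.667 (0.569 to 0.779).

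At the other 3 shared windows the ratios of RPKM lay on opposite sides of 1 in the ventral and dorsal SCN. The Sfi1 start-site window had 82.9 RPKM at dorsal 24 h and 108.5 at dorsal 26 h, a ratio of 0.764 (0.635 to 0.918) where the ventral ratio was 1.97. The chromosome-end window named after Tmx3 had 62.4 and 94.3 RPKM, a ratio of 0.662 (0.537 to 0.814) beside 1.35 in the ventral SCN. The chromosome-end window named after Gm14496 had 85.1 and 102.9 RPKM, a ratio of 0.827 (0.687 to 0.994) beside 1.39. At both chromosome-end windows the reads without scaling were fewer at 24 h in either part, with dorsal reads of 143 against 272 and 195 against 297, so the opposite direction there rested on the scaling to depth. At the Sfi1 window the reads themselves lay in opposite directions, with 266 against 244 ventral and 190 against 313 dorsal reads. The ventral reads there were within 10% of equal, and without scaling the interval of their ratio held 1. The size of the ventral difference thus rested on the scaling to depth there too. None of the 81 lower windows of the chromosome 11 stretch was among the 5. Whether the ratios differ between parts beyond the spread of animals was not tested.

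**Figure D5:**
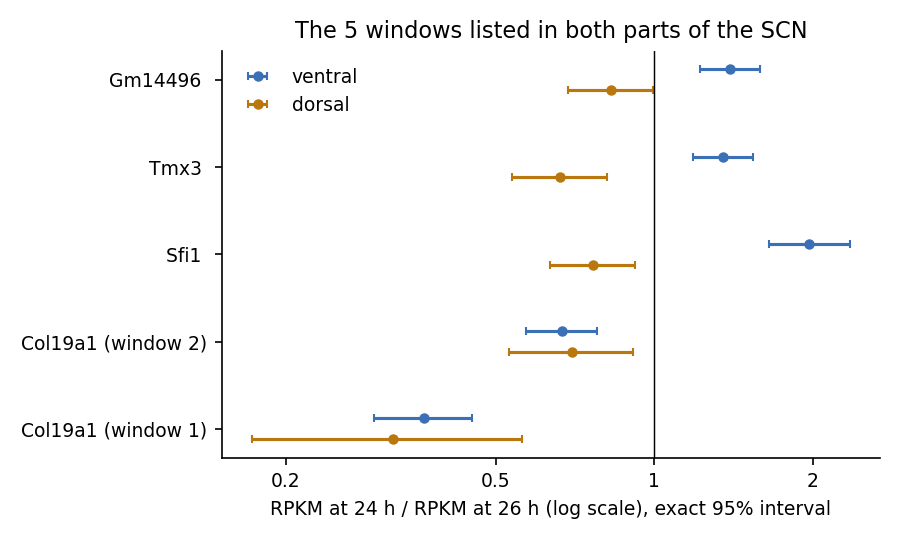
Ratio of RPKM at 24 h over 26 h (log scale) with its exact 95% interval for the 5 windows listed in both the ventral and the dorsal SCN, from 1 column per group. Both Col19a1 windows lie below 1 in both parts, while the windows named after Sfi1, Tmx3 and Gm14496 lie above 1 in the ventral and below 1 in the dorsal SCN.

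The dorsal comparison of 24 h with 22 h shared 24 windows (11.1% of the ventral list and 18.3% of the 131 dorsal windows). They comprised the 11 windows named after Col19a1, the 6 named after Gad2 and 7 others, and 22 of the 24 were lower at 24 h in both by RPKM. The exceptions were the chromosome-end windows named after Tmx3 and Gm14496, with dorsal ratios of 0.456 (0.374 to 0.553) and 0.644 (0.539 to 0.768). Within the chromosome 11 stretch, 1 window (3079001) was shared, with 4.97 against 13.4 RPKM in the ventral and 1.75 against 7.34 in the dorsal comparison. The window at 19760001 on chromosome 8 had no reads at dorsal 24 h and 24 at dorsal 22 h. The ventral comparison of 24 h with 22 h uses the same 24 h column and shared 4 windows. The one named after Tmem121, on chromosome 12 and free of CpG, had 10.7 RPKM at 24 h, 1.06 at 26 h and 0 at 22 h, and that in Spata13 had 10.7, 0.85 and 2.94 RPKM. The Hsd17b13-named window had 5.35, 0.21 and 0 RPKM. The mitochondrial window at 12001 had 108.6, 217.1 and 111.1 RPKM, so that its 22 h level by RPKM lay near that of 24 h. The ratio of 24 h over 22 h was 0.977 (0.840 to 1.14), from 284 and 454 reads. The authors nevertheless listed it as different there, with the same direction as against 26 h.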

How the data were processed

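MeDIP-seq reads were aligned with BWA to mm9, per the submitters' processing notes; versions are not given in the sources used here, nor how the 2 samples of a group were combined. The authors deposited RPKM per 500-bp window, columns headed counts that hold a rescaled score and not reads, a log2 fold change and an unadjusted p-value, both from edgeR per the file headers. In the authors' deposited table no p-value exceeded 9.89e-05. Reads were recovered from RPKM, whose values were all whole multiples of 1 read within 0.01 RPKM. Ratios carry exact Clopper-Pearson 95% intervals from the recovered reads, which cover counting error only. For the ratio itself, but not its interval, an empty column was set to 3 reads. Recovery and intervals were tested on simulated data. Windows were placed with GENCODE M1 (mm9), promoters within 1000 bp of a transcript start. A window was mostly unique when at least 50% of its 31-base words occurred once in mm9. Listed windows on the mitochondrial chromosome, or aligned to it over at least 80%, were never counted as mostly unique. Short tandem repeats were called where at least 30% of 15-base words recurred within 100 bp. Mitochondrial matches came from BLAST 2.17.0 (80% of the window at 90% identity), with neighbouring windows of a block included. Other steps used Python 3.11.15, numpy 2.4.6, pandas 2.3.3 and scipy 1.17.1. Named were the 10 largest ratios per direction, regions of at least 3 windows, windows named after listed genes, windows at transcript starts, the 5 highest levels per direction and windows shared with other lists; Rsph3a, Spag9, Zbtb10, Mdga2, Fam172a, Nrxn2, Gpm6a and further examples were added after their values were seen. Members and lists were chosen with earlier results of these data known.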

Additional observations from a re-analysis of the deposited data

Results flagged for a closer look

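At 3 windows the ratio of RPKM between 24 h and 26 h days lay on opposite sides of 1 in the ventral and dorsal SCN, each from 1 column per group, so the difference was not tested. At the Sfi1 start-site window the log2 ratio of 24 h over 26 h was 0.98 in the ventral and -0.39 in the dorsal SCN, a difference of 1.36. Its reads were 266 against 244 in the ventral SCN, within 10% of equal, and 190 against 313 in the dorsal SCN. At the chromosome-end window named after Tmx3 it was 0.43 and -0.59, a difference of 1.03. At the chromosome-end window named after Gm14496 it was 0.48 and -0.27, a difference of 0.75. At these chromosome-end windows the opposite sign held only after scaling to depth. Their ventral reads were 407 against 543 and 405 against 525, and their dorsal reads 143 against 272 and 195 against 297.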

How the results depend on the processing

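Counts and intervals rest on 1 pooled column per group and on windows that the authors had selected; unlisted windows were not used here. No paired analysis was possible because each group has 1 column, and for the same reason no sample could be left out. The authors' log2 fold change lay a median of 0.53 below the log2 ratio of RPKM (-0.53). Direction by RPKM differed from the authors' at 0 windows.

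Reads not scaled to depth gave 12.9% of windows and 21.5% of regions higher at 24 h (26.7% and 38.3% by RPKM), 21 intervals above 1 instead of 58, and an overall median log2 ratio of -1.92 instead of -1.07. This median was -1.66 by the authors' log2 fold change, -1.59 with RPKM shifted by the median difference, -1.24 without mitochondrial windows and their copies, -0.47 without the chromosome 11 stretch and -1.40 in mostly unique windows. Leaving out the stretch also gave 42.2% of windows and 51.95% of regions higher, 36 instead of 112 windows at least 2-fold lower and 71 instead of 151 intervals below 1. Merging within 10000 bp made 50.8% of regions higher. Mostly unique windows gave 17.7% higher, 11 instead of 21 at least 2-fold higher, and 88 intervals below and 20 above 1; fewer windows entered. An authors' p-value of at most 1e-05 left 3 windows at least 2-fold higher and 37 intervals above 1. A 3-fold limit left 60 lower windows and a 1.5-fold limit gave 51 higher. By class, in settings chosen after seeing the data, the median log2 ratio of the stretch (-1.56) became -2.14 by the authors' log2 fold change, -2.415 on unscaled reads and -2.09 when shifted. That of the mitochondrial chromosome (-0.65) became -1.50 and -1.17 on unscaled and shifted values. That of its nuclear copies (-0.76) became -1.28, -1.61 and -1.29. That of other nuclear windows (0.58) became -0.27 on unscaled reads and 0.05 when shifted, the latter close to no difference though within its limits. Within 1000 bp, 8 instead of 4 windows were shared with the ventral 22 h list and 13 instead of 5 with the dorsal 26 h list. Including that 0.05, 52 of 85 recomputed values stayed on their side and within their limits.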
